A study of Homo sapiens with 9 samples.

Results

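Norepinephrine (NE) was given for 6 h to immortalized human trabecular meshwork cells, and the 3 NE libraries were set against the 3 DMSO libraries of the same count table. The trabecular meshwork is the tissue that drains aqueous humour from the eye, and the line is a commercial immortalized culture of primary cells. Every group was grown on type I collagen and held in serum-free medium for 24 h beforehand. The NE group received 1 µM NE, the DMSO group received the vehicle alone, and a further group received 0.1 µM dexamethasone (DEX), a glucocorticoid, each for 6 h. The members are all genes that passed an expression filter in the NE table, 15630 of the 37247 genes listed. The series holds 12 libraries in 2 tables, 6 of them in the NE table, against 9 labelled samples in 3 groups of 3. The DMSO columns of the NE table could not be tied to single labelled samples, so DMSO 1 to 3 are named here by their column numbers. The labels call the samples biological replicates without saying what separates them, so p-values measure the spread between these libraries, which may be technical in part. A single cell line was used, and no receptor blocker is among the groups.

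Norepinephrine is the main transmitter of sympathetic nerves. Its beta receptors couple through Gs to adenylyl cyclase, which makes cyclic AMP (cAMP); cAMP activates protein kinase A, and this phosphorylates the transcription factor CREB, which binds cAMP response elements (CREs) in promoters. Alpha-1 receptors couple through Gq to calcium and protein kinase C, and alpha-2 receptors couple through Gi, which lowers cAMP. Phosphodiesterases break cAMP down, and several of their genes are themselves turned on by cAMP. The ERK kinase cascade runs in parallel; its activity is read from genes such as those of the Sprouty proteins and dual-specificity phosphatases, which are made when ERK is active and then restrain it.

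The 6 libraries held 31104094 to 36216506 expected counts each. Levels are given as CPM, counts scaled by TMM-adjusted library size. A mean level is given ± its SD over 3 libraries, and a log2 fold change ± its standard error (SE). DMSO 1 stood apart: its counts differed from those of DMSO 2 and DMSO 3 by a chi-square of 17.1 and 20.9 per degree of freedom, against 2.93 between DMSO 2 and DMSO 3 and 3.44 to 9.40 among the NE libraries. The first principal component held 31.8% of the variance and set DMSO 1 at one end, at 32.6. It also separated the groups, with DMSO 2 and 3 at 5.45 and 3.41 and NE 1 to 3 at -3.43, -15.99 and -22.05. No pair of libraries agreed within counting noise, so each counted once.

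With NE, 441 of the 15630 genes tested were called, 232 higher and 209 lower (edgeR's quasi-likelihood test with Benjamini-Hochberg adjustment over all genes tested, adjusted p below 0.05, as for every adjusted p here unless another tool is named). That is a background of 2.82% of genes called, 1.48% higher and 1.34% lower. Every count of called list members below is to be read beside these shares. A change of more than 2-fold was seen in 59 called genes that rose and 10 that fell, and the 69 became 33 to 66 when 1 library was left out. The median log2 fold change of all tested genes was -0.003. The 3 NE levels lay wholly above or wholly below the 3 DMSO levels in 3290 genes, or 21.0% of those tested, and in all 441 called genes. With the replicate number as a block, 1688 genes were called (10.8%), 793 higher (5.07%) and 895 lower (5.73%), and 439 of the 441 were among them with the same direction. Single libraries weighed on the count, which fell to 284, 152 and 160 without NE 1, 2 or 3, fell to 217 and 221 without DMSO 2 or 3, and rose to 671 without DMSO 1. Without DMSO 1 the share of higher genes among the calls was 45.3%, against 52.6% with it. Of the 441, 137 genes (81 higher, 56 lower) were called in each of the 12 alternatives that gave them a value, and these are called the stable genes below.

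**Figure D1:**
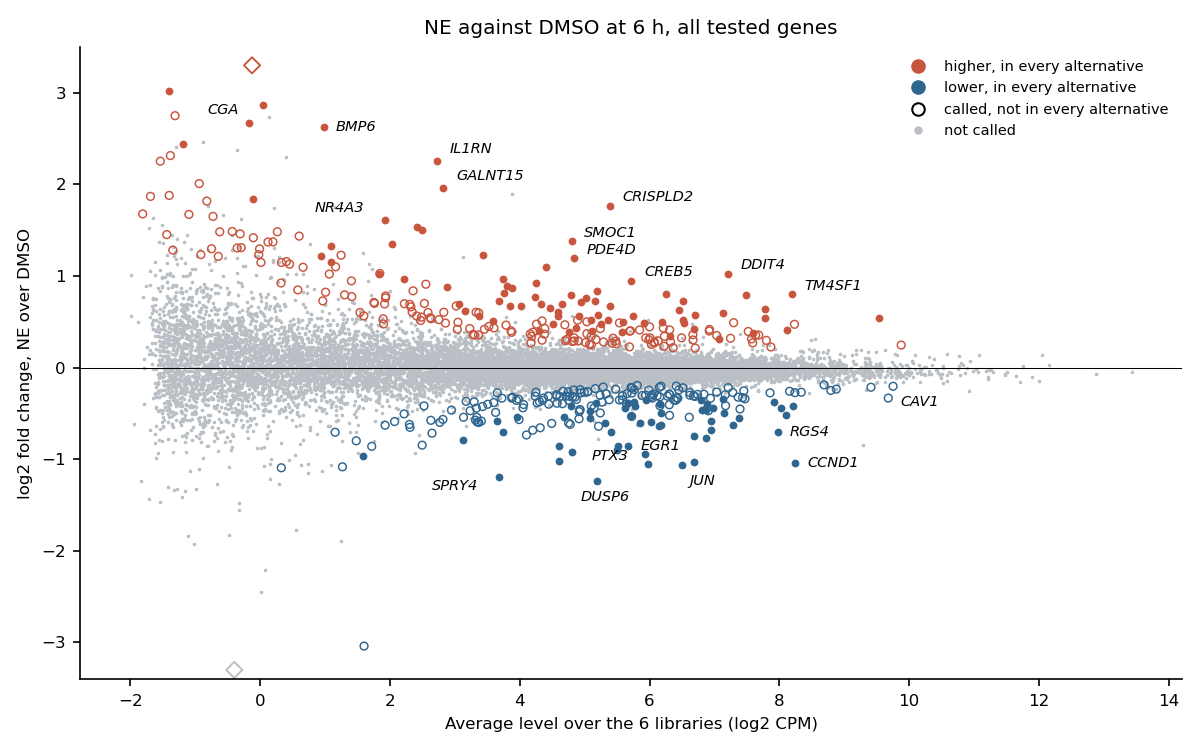
Change with NE (log2 fold change over DMSO, y axis) against average level (log2 CPM, x axis) for the 15630 tested genes. Filled points are the stable calls, open circles the other calls, grey points genes not called, and the 2 diamonds at the edges are genes whose change lies beyond the axis. More rises than falls were large: 59 called genes rose more than 2-fold and 10 fell more than 2-fold. With the stricter filter on low counts these were 37 and 10.

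CRISPLD2, which encodes a secreted protein of the cysteine-rich CAP family, stood at 18.6, 19.5 and 18.99 CPM in DMSO 1 to 3 and 63.5, 65.3 and 65.9 CPM in NE 1 to 3. The NE libraries lie far above the DMSO libraries, with log2 fold change 1.77 ± 0.046, adjusted p = 2.51e-06, a rise of 3.41-fold. IL1RN, the gene of the interleukin-1 receptor antagonist, stood at 2.71, 2.31 and 1.87 CPM in DMSO 1 to 3 and 10.5, 11.3 and 10.9 CPM in NE 1 to 3. Its rise was 4.76-fold (log2 fold change 2.25 ± 0.12, adjusted p = 0.000117), from a low level. PDE4D, a cAMP phosphodiesterase, stood at 17.2, 17.8 and 17.04 CPM in DMSO 1 to 3 and 38.99, 39.9 and 40.4 CPM in NE 1 to 3. It rose 2.29-fold (log2 fold change 1.20 ± 0.047, adjusted p = 2.41e-05), with little spread within either group. DUSP6, the phosphatase that removes phosphate from ERK, stood at 54.4, 46.3 and 52.5 CPM in DMSO 1 to 3 and 24.9, 21.2 and 19.1 CPM in NE 1 to 3. It fell by 1.23 ± 0.10 in log2 units (adjusted p = 0.000576), and NE 3 was the lowest library. JUN, a subunit of the transcription factor AP-1, stood at 143, 134 and 136 CPM in DMSO 1 to 3 and 68.1, 69.01 and 65.2 CPM in NE 1 to 3. It fell by 1.03 ± 0.045 in log2 units (adjusted p = 4.87e-05), to about the same level in each NE library. All 5 were stable calls.

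**Figure D2:**
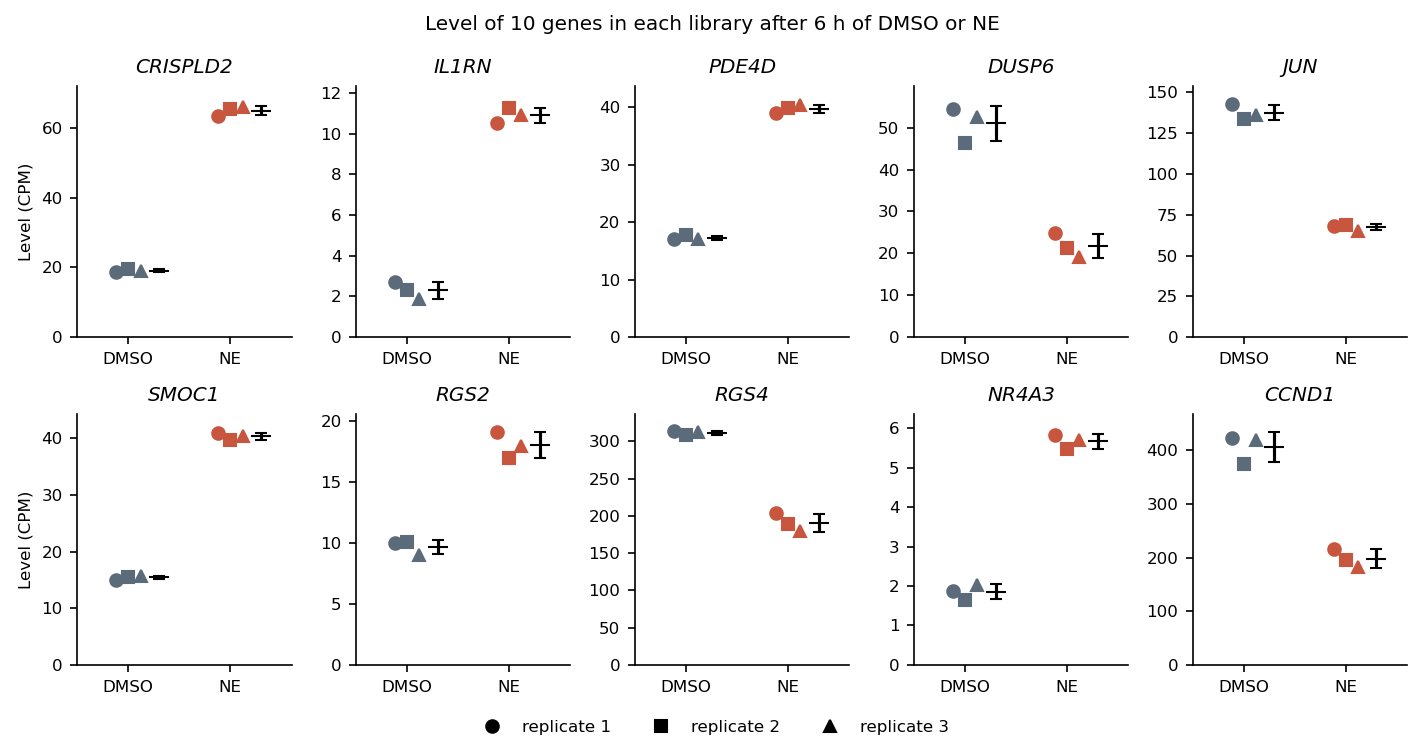
Level (CPM, y axis) of 10 genes in each of the 3 DMSO and 3 NE libraries; marker shape gives the replicate number, and the bar gives the mean with 1 SD. The groups do not overlap for any of the 10, and all 10 were called; CRISPLD2 lies between 18.6 and 19.5 CPM with DMSO and between 63.5 and 65.9 CPM with NE.

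Of the 9 adrenergic receptor genes 3 passed the filter and none was called (2 had an unadjusted p below 0.05, and DESeq2 called 0 as well). The 9 summed to 4.01 to 4.60 CPM in the DMSO libraries and 3.18 to 4.22 CPM in the NE libraries, and the median log2 fold change of the 3 tested was -0.425. Values are given here for 2 of the 3. ADRB1, the beta-1 receptor, was at 0.306 ± 0.117 with DMSO and 0.389 ± 0.0153 CPM with NE and ADRA1B, an alpha-1 receptor, at 0.837 ± 0.146 with DMSO and 0.507 ± 0.0880 CPM with NE, with adjusted p-values of 0.729 and 0.207. The other 6 receptor genes had 0 to 15 counts in any library. Genes that clear catecholamines were not called either (0 of 4 tested, 0 at an unadjusted p below 0.05, 0 by DESeq2), and the transporter SLC6A2 was at 0 in every library.

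Of 26 tested genes for G proteins, adenylyl cyclases, protein kinase A and its anchors 1 was called, and their median log2 fold change was -0.01. The called gene was AKAP12, a protein kinase A anchor, at 231, 262 and 262 CPM in DMSO 1 to 3 and 334, 346 and 369 CPM in NE 1 to 3 (log2 fold change 0.47 ± 0.064, adjusted p = 0.00753). GNAS, the Gs subunit, was at 646 ± 30.7 with DMSO and 648 ± 16.1 CPM with NE, and PRKACA, the catalytic subunit of protein kinase A, at 129.7 ± 9.37 with DMSO and 132 ± 13.2 CPM with NE; neither was called. AKAP12 lost its call without NE 2 and without NE 3, as given with the CREB targets below.

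Among 13 genes that damp receptor signals (receptor kinases, arrestins and RGS proteins) 2 were higher and 2 lower. RGS2, which speeds the shut-off of Gq and binds adenylyl cyclase, was at 9.71 ± 0.578 with DMSO and 18.1 ± 1.07 CPM with NE (log2 fold change 0.89 ± 0.073, adjusted p = 0.000576), a rise of 1.86-fold with every NE library above every DMSO library. RGS4, which acts on Gi and Gq, stood at 313, 308 and 312 CPM in DMSO 1 to 3 and 203, 189 and 180 CPM in NE 1 to 3. It fell by 0.71 ± 0.051 in log2 units (adjusted p = 0.000346), with every NE library well below every DMSO library. Both were stable. The other called pair was RGS16, at 0.180 ± 0.131 with DMSO and 0.751 ± 0.0766 CPM with NE (log2 fold change 2.01), and the receptor kinase GRK5, lower at log2 fold change -0.24. RGS16 had 3 to 12 counts in the DMSO libraries and passed the filter through the NE group, so its call adds nothing to the count. The calls of GRK5 and RGS16 were lost in fits without a library: both without NE 1, NE 2, NE 3 or DMSO 3 and 1 without DMSO 2 (adjusted p up to 0.19).

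The called cAMP phosphodiesterases all rose: 5 of 15 tested were higher, against 1.48% of all genes. None was lower, and the median log2 fold change was 0.33. Besides PDE4D, PDE3A stood at 22.4, 24.1 and 23.2 CPM in DMSO 1 to 3 and 36.4, 38.8 and 39.2 CPM in NE 1 to 3 (log2 fold change 0.71 ± 0.053, adjusted p = 0.000373). PDE7B stood at 26.1, 27.4 and 26.6 CPM in DMSO 1 to 3 and 43.99, 46.6 and 42.5 CPM in NE 1 to 3 (log2 fold change 0.73 ± 0.052, adjusted p = 0.000339). In both genes every NE library was above every DMSO library. PDE8A (log2 fold change 0.26) and PDE10A (log2 fold change 1.82, at 0.222 ± 0.0317 with DMSO and 0.793 ± 0.125 CPM with NE) were the other calls. PDE10A had 6 to 9 counts in the DMSO libraries and passed the filter through the NE group, so 4 of the 5 calls do not rest on that selection. Calls of PDE8A and PDE10A depended on single libraries: both without NE 2 or NE 3, 1 without NE 1, 1 without DMSO 2 and 1 without DMSO 3 lost them (adjusted p up to 0.153). PDE4B, a close relative of PDE4D, had a log2 fold change of 0.54 and an adjusted p of 0.0541. The count of 5 was 4, 3 and 3 without NE 1, 2 and 3 in turn and 6, 4 and 4 without DMSO 1, 2 and 3.

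Among genes known as cAMP and CREB targets most were called. Of 22 tested, 12 were higher and none lower, against 1.48% of all genes higher, and the median log2 fold change was 0.69. The list was written with earlier results of these data known, so this excess is not an independent test. PDE4D and RGS2 are also counted in the lists above. The count was 11, 7 and 7 without NE 1, 2 and 3 in turn and 16, 9 and 8 without DMSO 1, 2 and 3. With the replicate block 19 were higher, against 5.07% of all genes with that block. NR4A3, an orphan nuclear receptor made quickly after cAMP rises, stood at 1.88, 1.65 and 2.04 CPM in DMSO 1 to 3 and 5.83, 5.47 and 5.703 CPM in NE 1 to 3 (log2 fold change 1.61 ± 0.11, adjusted p = 0.000332). PER1, a clock gene known to respond to cAMP, stood at 12.9, 12.2 and 14.1 CPM in DMSO 1 to 3 and 23.5, 24.7 and 26.4 CPM in NE 1 to 3 (log2 fold change 0.93 ± 0.073, adjusted p = 0.000486). ATF3, a stress-induced CREB-family repressor, stood at 10.7, 10.1 and 10.3 CPM in DMSO 1 to 3 and 19.2, 18.6 and 19.2 CPM in NE 1 to 3 (log2 fold change 0.87 ± 0.056, adjusted p = 0.000229). DUSP1, a phosphatase of the p38 and JNK kinases, stood at 19.8, 19.1 and 18.8 CPM in DMSO 1 to 3 and 33.5, 30.9 and 28.9 CPM in NE 1 to 3 (log2 fold change 0.70 ± 0.065, adjusted p = 0.0011). SCG2, which encodes the secretory granule protein secretogranin II, stood at 33.2, 31.1 and 32.3 CPM in DMSO 1 to 3 and 51.4, 53.3 and 49.7 CPM in NE 1 to 3 (log2 fold change 0.68 ± 0.049, adjusted p = 0.000346). For all 5 the NE libraries lie above the DMSO libraries. With PDE4D and RGS2 these make 7 stable members. The other 5 called were NR4A2 (log2 fold change 0.71), the mitochondrial coactivator PPARGC1A (1.30), FOSB (0.70), the secreted neuropeptide precursor VGF (0.54) and AKAP12 (0.47). Of NR4A2, PPARGC1A, FOSB, VGF and AKAP12, all 5 without NE 2 or NE 3, 2 without NE 1, 3 without DMSO 2 and 4 without DMSO 3 lost the call, with adjusted p-values of up to 0.217. Members not called included CREM (0.30, adjusted p = 0.13), SIK1 (0.94, 0.188) and NR4A1 (0.31, 0.0619), for which the NE libraries were all above the DMSO libraries, and PTGS2 (-0.055, 0.855), for which they overlapped. Groups without overlap, in either direction, were seen in 21.0% of all tested genes, so for genes not called this adds no weight.

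Of 12 tested genes of CREB itself and its partners 1 was higher, and the median was 0.16. With the replicate block 7 of the 12 were higher, against 5.07% of all genes with that block, and without DMSO 1 the count was 3. The called gene was CREB5, a CREB relative, at 31.2, 39.3 and 37.2 CPM in DMSO 1 to 3 and 63.5, 69.4 and 75.3 CPM in NE 1 to 3 (log2 fold change 0.95 ± 0.094, adjusted p = 0.00149), with every NE library above every DMSO library.

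The promoters of called genes were searched for the CRE, since it is the element CREB binds. RefSeq promoter windows of 300 bases (250 before to 50 after the start of the gene, GRCh38.p14) were matched to 341 of the 434 called genes with a symbol. The full element TGACGTCA, which reads the same on both strands, was in 540 of all 27305 promoters (1.98%) and in 357 of the 11361 belonging to tested genes (3.14%). Among genes higher with NE it was in 11 of 181 (6.08%), and among genes lower with NE in 2 of 160 (1.25%). CGA is among the 11 and passed the expression filter through the NE group, so it adds nothing to that count. It was in 0 of the 14 matched promoters of the 15 largest rises and 0 of the 12 of the 15 largest falls. The short element TGACG on either strand, which the full element contains, was in 30.4% of promoters of higher genes, 21.9% of lower and 33.6% of tested genes. The AP-1 element TGANTCA was in 6.08% of higher, 6.25% of lower and 4.74% of tested genes, and the ETS element CCGGAAGT in 0.552%, 3.12% and 8.22%. The FOXO element TGTTTAC was in 1.66%, 1.25% and 2.26% in the same order. The CArG box of serum response factor was in 1.66%, 1.25% and 1.11%, and the palindromic glucocorticoid response element in 0.552%, 0.625% and 0.194%. These are letter matches in short windows and were not tested. The 4 promoters printed here are examples picked from stable genes that carry the full CRE or several short ones. They are 3 of genes that rose and, for contrast, 1 of a gene that fell. Each is 5′ to 3′ on the strand of the gene, with the CRE letters (TGACGTCA, or TGACG and its reverse complement CGTCA) in capitals.
NR4A3: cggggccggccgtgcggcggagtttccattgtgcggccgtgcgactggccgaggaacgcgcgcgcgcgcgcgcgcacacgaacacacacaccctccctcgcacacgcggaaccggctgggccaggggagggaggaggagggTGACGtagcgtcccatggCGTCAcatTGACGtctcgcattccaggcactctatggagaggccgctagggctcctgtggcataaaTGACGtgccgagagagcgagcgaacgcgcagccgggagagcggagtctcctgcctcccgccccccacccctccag
DUSP1: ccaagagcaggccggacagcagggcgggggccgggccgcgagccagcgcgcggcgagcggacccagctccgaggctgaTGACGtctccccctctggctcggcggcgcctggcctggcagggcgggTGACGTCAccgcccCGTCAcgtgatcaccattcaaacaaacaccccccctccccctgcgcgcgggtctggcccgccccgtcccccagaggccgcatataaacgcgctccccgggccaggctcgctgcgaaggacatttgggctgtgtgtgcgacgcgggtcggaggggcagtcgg
PDE7B: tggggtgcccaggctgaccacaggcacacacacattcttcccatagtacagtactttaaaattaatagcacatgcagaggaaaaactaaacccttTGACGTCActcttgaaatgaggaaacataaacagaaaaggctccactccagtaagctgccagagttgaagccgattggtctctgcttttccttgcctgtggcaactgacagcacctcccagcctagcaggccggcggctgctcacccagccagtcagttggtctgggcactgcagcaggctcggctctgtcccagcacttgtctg
EPHA2: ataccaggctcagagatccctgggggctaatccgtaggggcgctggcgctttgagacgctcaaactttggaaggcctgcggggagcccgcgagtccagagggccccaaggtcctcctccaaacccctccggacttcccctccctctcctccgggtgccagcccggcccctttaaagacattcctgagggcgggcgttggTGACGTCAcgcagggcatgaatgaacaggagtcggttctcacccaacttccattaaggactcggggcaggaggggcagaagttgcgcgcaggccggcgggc
The NR4A3 window lies at chr9:99821635-99821934 on the plus strand and holds 4 short elements and no full one. The DUSP1 window, at chr5:172771146-172771445 on the minus strand, holds a full element that begins 125 bases before the start and 4 matches to the short one in all. That of PDE7B is at chr6:135851451-135851750 on the plus strand, with its full element at 155 bases before the start. The EPHA2 window is at chr1:16156020-16156319 on the minus strand, with the full element at 51 bases before the start, and this gene fell with NE. The other higher genes with a full element were AVPI1, CGA, CHMP1B, GABARAPL1, IFRD1, PCSK1, PPM1D, TMF1 and VGF, and the other lower gene was MAFF. The calls of IFRD1, TMF1, PPM1D, PCSK1, VGF and MAFF were lost in fits without a library: all 6 without NE 2, NE 3 or DMSO 2, 4 without NE 1 and 5 without DMSO 3 (adjusted p up to 0.234). The windows of CRISPLD2, DUSP6, PER1 and PDE4D held neither the full nor the short element, which says only that these letters are not in these windows.

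**Figure D3:**
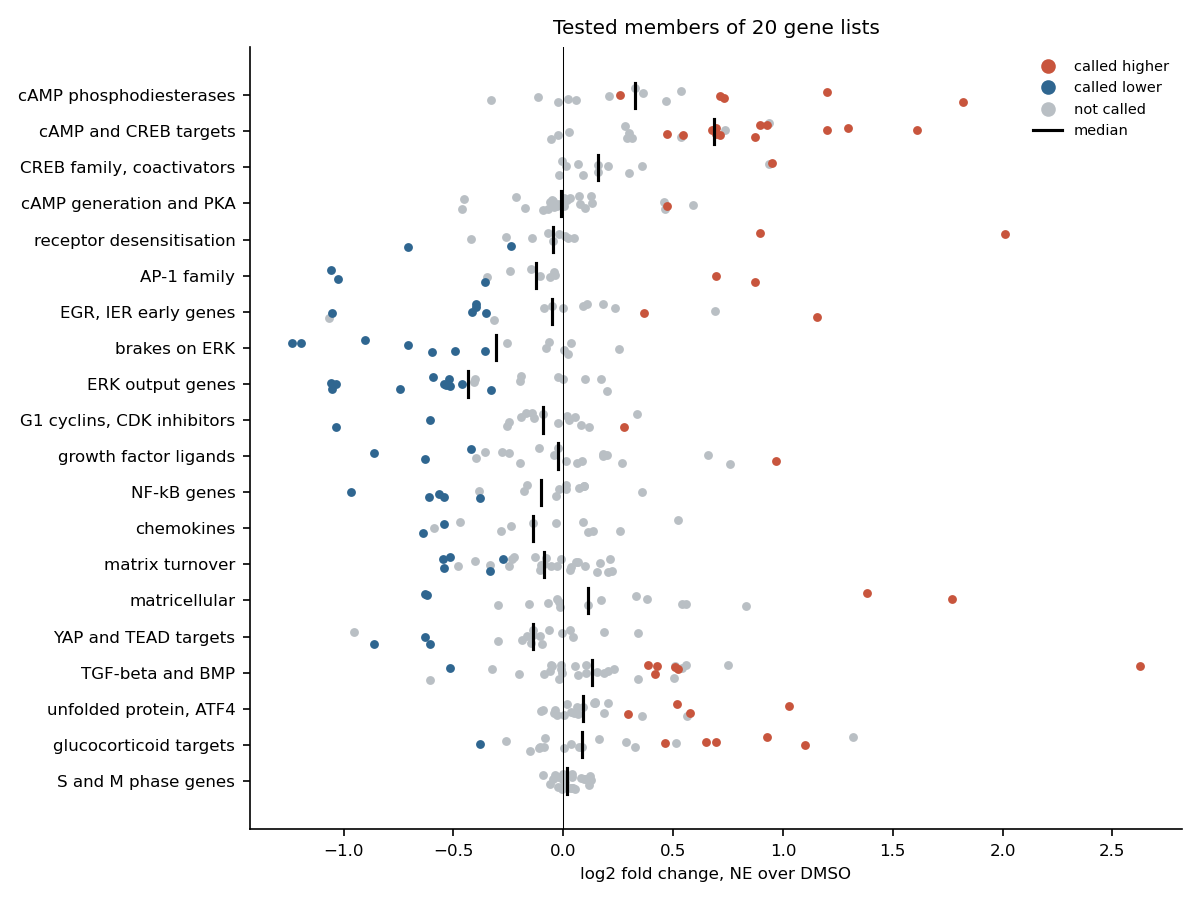
Change with NE (log2 fold change over DMSO, x axis) of every tested member of 20 gene lists (y axis); red points were called higher, blue lower, grey not called, and the black tick is the median of the list. The calls of the cAMP and CREB target list lie on the right, 12 of 22, and those of the ERK lists on the left, 7 of 14 brakes and 11 of 20 outputs. The lists were written with earlier results of these data known.

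Of 14 tested brakes on ERK signalling 7 were lower and none was higher, against a background of 1.34% lower, and the median log2 fold change was -0.305. This list and that of ERK outputs were also written with earlier results of these data known, so their excess is not an independent test. DUSP5, which removes phosphate from nuclear ERK, stood at 59.5, 58.3 and 58.99 CPM in DMSO 1 to 3 and 34.97, 30.3 and 29.4 CPM in NE 1 to 3. Its log2 fold change was -0.90 (SE 0.067, adjusted p = 0.000372). SPRY4, a Sprouty inhibitor of receptor tyrosine kinase signals, stood at 16.1, 17.5 and 19.3 CPM in DMSO 1 to 3 and 7.96, 7.404 and 7.78 CPM in NE 1 to 3 (log2 fold change -1.19 ± 0.082, adjusted p = 0.000318). SPRY2, its relative, stood at 17.6, 16.6 and 15.3 CPM in DMSO 1 to 3 and 11.02, 9.31 and 10.02 CPM in NE 1 to 3 (log2 fold change -0.71 ± 0.083, adjusted p = 0.00364). With DUSP6 these were stable, and in each the highest NE library was below the lowest DMSO library. DUSP4 (-0.49), SPRED1 (-0.35) and SPRED3 (-0.60) were the other calls. Calls of DUSP4, SPRED1 and SPRED3 depended on single libraries: all 3 without NE 2 or NE 3, 1 without DMSO 1, 2 without DMSO 2 and 2 without DMSO 3 lost them (adjusted p up to 0.208). The 7 lower brakes numbered 7, 4 and 4 without NE 1, 2 and 3 in turn and 7, 5 and 5 without DMSO 1, 2 and 3. With the replicate block 1 brake, DUSP10, was called higher (log2 fold change 0.25, adjusted p = 0.0237 with the block and 0.187 without).

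Of 20 tested output genes of ERK 11 were lower, against 1.34% of all genes, and none higher, with a median log2 fold change of -0.43. CCND1, cyclin D1, which drives entry into the cell cycle, stood at 423, 374 and 420.1 CPM in DMSO 1 to 3 and 217, 195 and 182 CPM in NE 1 to 3 (log2 fold change -1.04 ± 0.075, adjusted p = 0.000346). FOSL1, the AP-1 subunit FRA-1, stood at 124, 120.2 and 124 CPM in DMSO 1 to 3 and 62.97, 58.4 and 55.4 CPM in NE 1 to 3 (log2 fold change -1.06 ± 0.054, adjusted p = 8.69e-05). EGR1, an early-response transcription factor, stood at 76.1, 92.6 and 87.1 CPM in DMSO 1 to 3 and 37.2, 42.2 and 43.8 CPM in NE 1 to 3 (log2 fold change -1.05 ± 0.086, adjusted p = 0.00058). In each the groups were far apart. EPHA2, an ephrin receptor, fell from 128 ± 3.43 to 76.5 ± 3.24 CPM (log2 fold change -0.74 ± 0.047, adjusted p = 0.00022). HMGA2, a chromatin protein, fell from 77.9 ± 4.304 to 51.7 ± 2.87 CPM (log2 fold change -0.59 ± 0.060, adjusted p = 0.00163). These 5 were stable, and the calls that were not included the transcription factors ETV1 (-0.53), ETV4 (-0.46) and ETV5 (-0.52), PHLDA1 (-0.33) and the protease PLAU (-0.54). Of ETV1, ETV4, ETV5, PHLDA1 and PLAU, all 5 without NE 2, 4 without NE 3, 2 without DMSO 1, 4 without DMSO 2 and 3 without DMSO 3 lost the call, with adjusted p-values of up to 0.231. With the replicate block ETV5 (adjusted p = 0.0958) and PLAU (0.0517) were not called. The 11 became 11, 6 and 7 without NE 1, 2 and 3 in turn and 10, 7 and 8 without DMSO 1, 2 and 3. MYC was not called (log2 fold change -0.19, adjusted p = 0.123), nor was HBEGF, a ligand of the EGF receptor (-0.20, 0.185).

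The AP-1 family was split. JUN, FOSL1 and MAFF (-0.36) fell and FOSB (0.70) and ATF3 (0.87) rose among 12 tested, while FOS overlapped between groups (-0.15, adjusted p = 0.642). Of 17 tested EGR, IER and related early genes 5 were lower and 2 higher. Besides EGR1, ZFP36L1, which destabilises AU-rich mRNAs, stood at 136, 134 and 131 CPM in DMSO 1 to 3 and 99.3, 102 and 103 CPM in NE 1 to 3 (log2 fold change -0.40 ± 0.039, adjusted p = 0.00149), and both were stable. IER2 (-0.35), KLF2 (-0.40) and KLF6 (-0.42) fell, and ARC (1.16) and BTG2 (0.37) rose. The calls of MAFF, IER2, KLF2 and KLF6 were lost in fits without a library: all 4 without NE 2 or NE 3 and 1 without DMSO 2 (adjusted p up to 0.0874). Calls of ARC and BTG2 depended on single libraries: both without NE 2 or NE 3, 1 without DMSO 2 and 1 without DMSO 3 lost them (adjusted p up to 0.0915).

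Cell cycle genes other than cyclin D1 gave few calls. Of 17 tested G1 cyclins and inhibitors, CCND1 and the CDK inhibitor CDKN2B fell and the CDK inhibitor CDKN1B rose. CDKN2B stood at 70.8, 67.3 and 70.9 CPM in DMSO 1 to 3 and 46.2, 45.7 and 45.5 CPM in NE 1 to 3 (log2 fold change -0.60 ± 0.043, adjusted p = 0.000339) and was stable. CDKN1B rose from 60.9 ± 1.23 to 73.8 ± 0.536 CPM (log2 fold change 0.28 ± 0.040, adjusted p = 0.00985). None of the 24 S and M phase genes was called (edgeR, 3 at an unadjusted p below 0.05, 0 by DESeq2, 4 with the replicate block), and their median was 0.019. Over all 15630 genes tested, 2168 had an unadjusted p below 0.05, DESeq2 called 583 and the block called 1688. MKI67, a marker of cycling cells, was at 647 ± 119.8 with DMSO and 691 ± 80.4 CPM with NE, so the cells carried proliferation transcripts in both groups. In bulk RNA, fewer cells of one state and less RNA for each cell cannot be told apart.

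Among 21 tested growth factor ligands 3 were lower and 1 higher. FGF5 stood at 57.3, 57.9 and 60.6 CPM in DMSO 1 to 3 and 31.9, 31.6 and 33.3 CPM in NE 1 to 3 (log2 fold change -0.86 ± 0.047, adjusted p = 0.000117), with every NE library below every DMSO library. PDGFC fell from 62.4 ± 0.817 to 46.6 ± 1.997 CPM (log2 fold change -0.42 ± 0.047, adjusted p = 0.00277). HGF, hepatocyte growth factor, stood at 3.03, 2.78 and 3.505 CPM in DMSO 1 to 3 and 5.41, 7.06 and 5.73 CPM in NE 1 to 3 (log2 fold change 0.97 ± 0.14, adjusted p = 0.00915), with NE 2 the highest library. FGF1 fell (-0.63), and of 15 tested receptors FGFR2 (1.10) and IGF1R (0.32) rose and MET, the HGF receptor, fell (-0.27). Of FGF1, FGFR2, MET, IGF1R and CDKN1B, all 5 without NE 2, NE 3 or DMSO 3, 4 without NE 1 and 3 without DMSO 2 lost the call, with adjusted p-values of up to 0.216.

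Of 8 tested interleukin-1 family genes IL1RN was the one called. Of 16 tested NF-kB pathway and target genes 5 were lower, against 1.34% of all genes, and none higher. The 5 became 4, 1 and 1 without NE 1, 2 and 3 in turn and 6, 3 and 2 without DMSO 1, 2 and 3. VCAM1, a leukocyte adhesion molecule, stood at 3.98, 4.19 and 3.48 CPM in DMSO 1 to 3 and 1.998, 2.02 and 1.93 CPM in NE 1 to 3 (log2 fold change -0.97 ± 0.12, adjusted p = 0.00464), and was the stable member. ICAM1 (-0.61), the inhibitor NFKBIA (-0.38), NFKBIZ (-0.54) and TNFAIP2 (-0.57) were the other calls. Of 13 tested chemokines CCL2 (-0.64) and CXCL1 (-0.54) fell, a count that was 2, 0 and 0 without NE 1, 2 and 3 in turn and 2, 2 and 0 without DMSO 1, 2 and 3. The calls of CXCL1, CCL2, NFKBIA, NFKBIZ, TNFAIP2 and ICAM1 were lost in fits without a library: all 6 without NE 2 or NE 3, 1 without NE 1, 2 without DMSO 2 and 5 without DMSO 3 (adjusted p up to 0.186). PTX3, a secreted pentraxin of innate immunity, stood at 90.4, 71.8 and 78.6 CPM in DMSO 1 to 3 and 48.4, 40.6 and 36.5 CPM in NE 1 to 3 (log2 fold change -0.94 ± 0.11, adjusted p = 0.00437), lower in each NE library. PTGES, the enzyme that makes prostaglandin E2, stood at 10.8, 8.24 and 10.3 CPM in DMSO 1 to 3 and 17.1, 17.2 and 17.2 CPM in NE 1 to 3 (log2 fold change 0.81 ± 0.097, adjusted p = 0.00389). The receptor PTGER4 fell (-0.60) and the phospholipase PLA2G4A rose (0.25). Calls of PTGER4 and PLA2G4A depended on single libraries: both without NE 2, NE 3 or DMSO 3, 1 without NE 1 and 1 without DMSO 2 lost them (adjusted p up to 0.192).

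**Figure D4:**
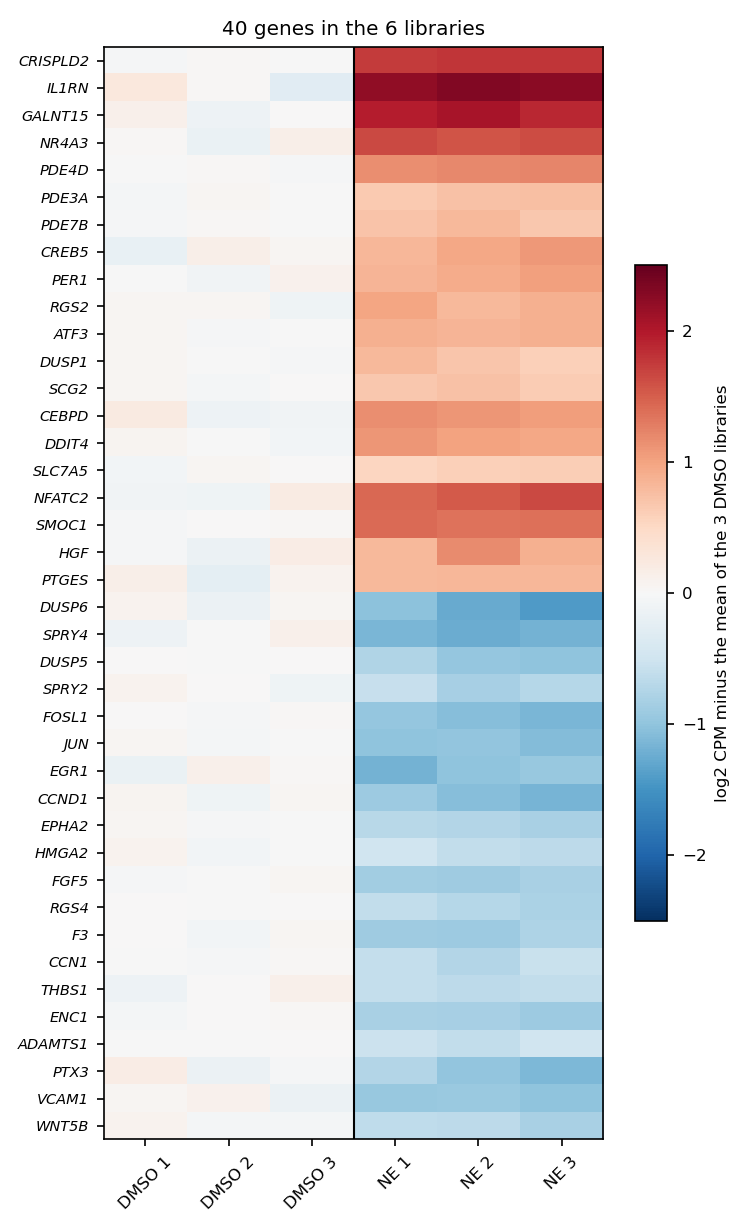
Level of 40 genes in the 6 libraries, as log2 CPM minus the mean log2 CPM of the 3 DMSO libraries (colour scale; red above, blue below). Rows are genes, columns are libraries, and the line separates DMSO from NE. All 40 are stable calls, so their separation is given by the choice; the NE columns resemble each other, and CRISPLD2 rose by 1.77 and DUSP6 fell by 1.23 on the log2 scale.

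SMOC1, a matricellular protein that can block BMP signals, stood at 15.1, 15.5 and 15.7 CPM in DMSO 1 to 3 and 40.9, 39.8 and 40.3 CPM in NE 1 to 3 (log2 fold change 1.38 ± 0.047, adjusted p = 1.14e-05), with little spread in either group. THBS1, thrombospondin-1, stood at 79.9, 87.8 and 94.9 CPM in DMSO 1 to 3 and 57.9, 55.5 and 57.4 CPM in NE 1 to 3 (log2 fold change -0.62 ± 0.065, adjusted p = 0.002). CCN1, also a target of the YAP coactivator, stood at 189, 187 and 195 CPM in DMSO 1 to 3 and 125, 115 and 129.5 CPM in NE 1 to 3 (log2 fold change -0.63 ± 0.052, adjusted p = 0.000625). With CRISPLD2 these were the called members of 17 tested matricellular genes, and all 4 were stable. Of 28 tested structural matrix genes 1 was called, COL8A1 (-0.33), a share near that of all genes, and the median was 0.037. Of 29 tested matrix turnover genes 5 were lower, against 1.34% of all genes, and none higher. The 5 became 5, 2 and 3 without NE 1, 2 and 3 in turn and 6, 3 and 3 without DMSO 1, 2 and 3. ADAMTS1, a protease of proteoglycans, stood at 40.04, 39.96 and 40.3 CPM in DMSO 1 to 3 and 27.7, 26.4 and 28.4 CPM in NE 1 to 3 (log2 fold change -0.55 ± 0.047, adjusted p = 0.00079). The crosslinking enzymes LOX (-0.27) and LOXL1 (-0.33) and the protease PLAU fell by smaller or less stable amounts. Of COL8A1, LOX, LOXL1 and PLAU, all 4 without NE 2, 1 without NE 1, 3 without NE 3, 1 without DMSO 1, 3 without DMSO 2 and 2 without DMSO 3 lost the call, with adjusted p-values of up to 0.147. F3, tissue factor, which starts blood coagulation, stood at 31.4, 29.9 and 32.2 CPM in DMSO 1 to 3 and 16.7, 16.6 and 18.2 CPM in NE 1 to 3 (log2 fold change -0.86 ± 0.059, adjusted p = 0.000314), one of 3 lower among 18 tested YAP and TEAD targets with CCN1 and FJX1 (-0.61).

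Of 30 tested actin and contractility genes 2 were higher and 2 lower. RHOB, a small GTPase, stood at 72.5, 69.7 and 68.5 CPM in DMSO 1 to 3 and 88.2, 88.96 and 90.8 CPM in NE 1 to 3 (log2 fold change 0.35 ± 0.042, adjusted p = 0.00403). CDC42EP3, an effector of CDC42, fell from 299.5 ± 7.01 to 221 ± 4.73 CPM (log2 fold change -0.44 ± 0.041, adjusted p = 0.0011). RND1, which opposes RhoA, rose (0.61) and the calponin CNN3 fell (-0.23). The calls of FJX1, CNN3 and RND1 were lost in fits without a library: all 3 without NE 2 or NE 3, 2 without NE 1, 2 without DMSO 2 and 2 without DMSO 3 (adjusted p up to 0.23). ACTA2, smooth muscle actin, was at 15.5 ± 0.809 with DMSO and 16.1 ± 1.16 CPM with NE, and its groups overlapped.

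BMP6, a BMP ligand, rose from 0.531 ± 0.128 to 3.298 ± 0.520 CPM (log2 fold change 2.62 ± 0.21, adjusted p = 0.000576), 6.16-fold higher and stable, from a low level. Of 32 tested genes of this list 6 were higher and 1 lower, against 1.48% and 1.34% of all genes, with a median of 0.13. SMAD6 (0.52), INHBA (0.42), FST (0.51), FSTL3 (0.39) and ID3 (0.43) were the other rises. Calls of SMAD6, INHBA, FST, FSTL3 and ID3 depended on single libraries: all 5 without NE 2, NE 3 or DMSO 2, 3 without NE 1 and 4 without DMSO 3 lost them (adjusted p up to 0.184). The 6 numbered 3, 1 and 1 without NE 1, 2 and 3 in turn and 9, 1 and 3 without DMSO 1, 2 and 3. Among 26 tested Wnt genes WNT5B stood at 55.6, 50.9 and 50.7 CPM in DMSO 1 to 3 and 33.6, 33.3 and 29.8 CPM in NE 1 to 3 (log2 fold change -0.70 ± 0.064, adjusted p = 0.00108) and WNT5A moved the other way (0.30, adjusted p = 0.0272). WNT5A lost its call without NE 2, NE 3, DMSO 2 or DMSO 3, with an adjusted p of up to 0.173. EPHA5, an ephrin receptor, rose from 2.27 ± 0.431 to 5.83 ± 0.636 CPM (log2 fold change 1.35 ± 0.15, adjusted p = 0.00306) while EPHA2 fell. DLL4, a Notch ligand, rose from 1.28 ± 0.0784 to 2.86 ± 0.213 CPM (log2 fold change 1.16 ± 0.14, adjusted p = 0.00364).

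Nutrient and stress genes rose in part. DDIT4, an inhibitor of the growth kinase complex mTORC1, stood at 102, 96.7 and 93.5 CPM in DMSO 1 to 3 and 209, 195 and 191 CPM in NE 1 to 3 (log2 fold change 1.03 ± 0.052, adjusted p = 8.69e-05). SLC7A5, a transporter of large amino acids, stood at 79.8, 85.98 and 84.3 CPM in DMSO 1 to 3 and 120.5, 126 and 127 CPM in NE 1 to 3 (log2 fold change 0.58 ± 0.046, adjusted p = 0.000515). SLC7A11, which imports cystine, stood at 68.4, 78.05 and 78.8 CPM in DMSO 1 to 3 and 102, 110.4 and 109.7 CPM in NE 1 to 3 (log2 fold change 0.52 ± 0.064, adjusted p = 0.00452). With SESN2 (0.29) these were 4 higher of 23 tested genes of the unfolded protein and ATF4 response, and none was lower. The share of all genes higher was 1.48%. The count was 8 without DMSO 1 and 11 with the replicate block, with which 5.07% of all genes were higher. NFE2L2, the transcription factor of the antioxidant response, stood at 121, 121 and 119 CPM in DMSO 1 to 3 and 151, 148 and 149 CPM in NE 1 to 3 (log2 fold change 0.32 ± 0.036, adjusted p = 0.00341). PPP1R3C, which directs a phosphatase to glycogen, rose from 23.4 ± 0.470 to 30.7 ± 0.262 CPM (log2 fold change 0.39 ± 0.045, adjusted p = 0.00325), the 1 call among 21 tested glucose and glycogen genes. NFATC2, a calcium-regulated transcription factor, stood at 2.55, 2.51 and 3.14 CPM in DMSO 1 to 3 and 7.32, 7.896 and 8.498 CPM in NE 1 to 3 (log2 fold change 1.53 ± 0.11, adjusted p = 0.000377). EPAS1 (0.35) and KDM3A (0.27) were the 2 higher of 14 tested hypoxia genes, against 1.48% of all genes. The calls of SESN2, KDM3A and EPAS1 were lost in fits without a library: all 3 without NE 2, NE 3 or DMSO 2, 2 without NE 1 and 2 without DMSO 3 (adjusted p up to 0.216). IFIT2 (0.27), OAS1 (0.43) and OASL (0.41) were higher among 24 tested interferon-stimulated genes, against 1.48% of all genes. Calls of IFIT2, OAS1 and OASL depended on single libraries: all 3 without NE 2, DMSO 2 or DMSO 3, 2 without NE 1 and 2 without NE 3 lost them (adjusted p up to 0.183). The kinase-like TRIB1 was the 1 call of 19 tested FOXO and insulin genes (-0.49). TRIB1 lost its call without NE 2 or NE 3, with an adjusted p of up to 0.0885.

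The 13 genes of the mitochondrial genome were all nominally higher, with a median of 0.15, and their summed level was 14200 to 15210 CPM in the DMSO libraries and 16010 to 16520 CPM in the NE libraries. MT-ND2 was the 1 called, at 859, 848 and 875 CPM in DMSO 1 to 3 and 1027, 1021 and 1013 CPM in NE 1 to 3 (log2 fold change 0.25 ± 0.042, adjusted p = 0.0205). With the replicate block 11 of 13 were higher, against 5.07% of all genes with that block. MT-ND2 lost its call without NE 1, NE 2, NE 3, DMSO 2 or DMSO 3, with an adjusted p of up to 0.142. Nuclear copies of these genes exist, and how the authors' counting shared reads between them is not given in the sources used here.

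Genes known to respond to glucocorticoids were also among the NE calls: 5 of 21 tested were higher and 1, NFKBIA, was lower. The shares over all genes were 1.48% higher and 1.34% lower. CEBPD, a transcription factor that cAMP also induces, stood at 15.6, 12.3 and 12.6 CPM in DMSO 1 to 3 and 30.2, 28.8 and 27.6 CPM in NE 1 to 3 (log2 fold change 1.10 ± 0.091, adjusted p = 0.000613). KLF9, a Kruppel-like repressor, stood at 15.9, 17 and 18.6 CPM in DMSO 1 to 3 and 27.3, 27.1 and 26.4 CPM in NE 1 to 3 (log2 fold change 0.65 ± 0.065, adjusted p = 0.00154). PER1 and DUSP1 are given above, and TSC22D3, known as GILZ, rose by 0.46 on the log2 scale. In the clock list NR1D1, known as REV-ERB alpha, rose (0.60) and BHLHE41 fell (-0.27) beside PER1 among 22 tested. Calls of NR1D1, BHLHE41 and TSC22D3 depended on single libraries: all 3 without NE 3, 1 without NE 1, 2 without NE 2, 1 without DMSO 2 and 2 without DMSO 3 lost them (adjusted p up to 0.186).

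Lists of markers were read as a check of the label. Trabecular meshwork markers were mixed: FOXC1 (59.6 ± 0.652 with DMSO and 60.9 ± 1.27 CPM with NE), NR2F1 (102 ± 1.83 with DMSO and 101 ± 2.83 CPM with NE) and TFPI2 (104 ± 8.02 with DMSO and 139 ± 7.202 CPM with NE) were well detected, while MYOC, a marker of differentiated or glucocorticoid-treated meshwork, had 0 to 5 counts in any library, EDN3 was at 0 in all, and 14 of 20 passed the filter. The summed level of the 20 was 561.5 to 566 CPM in the DMSO libraries and 604 to 617 CPM in the NE libraries, with TFPI2 higher (0.42) and FOXC2 lower (-0.37). Of 12 endothelial markers 9 were tested; the list summed to 25.9 to 29.9 CPM over the 6 libraries, the NE libraries within the DMSO range, and CDH5 had 3 to 15 and PLVAP 0 to 1 counts in any library. Of 14 immune markers 4 were tested; the list summed to 66.5 to 72.3 CPM with DMSO and 61.7 to 70.2 CPM with NE, most of it CD68, and CD3E, CD3D, TYROBP and C1QA were at 0. Of the 10 epithelial markers KRT18 (-0.45) and KRT19 (-0.47) were lower and KRT5, KRT14 and GRHL2 had 0 to 3 counts; the sum was 341 to 425 CPM with DMSO and 268 to 299.9 CPM with NE. The 14 melanocyte, Schwann and neuron markers summed to 32.2 to 35.2 CPM and 39.5 to 41.5 CPM, with MITF higher (0.31), and TYR and SOX10 near 0. The 12 smooth muscle and pericyte markers summed to 551.5 to 560.3 CPM and 508 to 536 CPM, with SMTN lower (-0.34) and NOTCH3 higher (0.39). Of FOXC2, TFPI2, KRT18, KRT19, MITF, SMTN and NOTCH3, all 7 without NE 2 or NE 3, 3 without NE 1, 5 without DMSO 2 and 6 without DMSO 3 lost the call, with adjusted p-values of up to 0.213. Whether other cells had a part in any result was not tested.

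By size among called genes with a symbol and an average of at least 1 on the log2 CPM scale, the 15 largest rises were headed by IL1RN and by GALNT15, of the enzyme family that starts O-glycosylation, at 3.15, 2.62 and 2.88 CPM in DMSO 1 to 3 and 11.2, 11.9 and 10.6 CPM in NE 1 to 3 (log2 fold change 1.96 ± 0.096, adjusted p = 8.49e-05). After CRISPLD2, NR4A3 and NFATC2 came PTPRN, a protein of dense-core vesicles, at 2.899 ± 0.229 with DMSO and 8.21 ± 0.633 CPM with NE (2.83-fold). SMOC1 and EPHA5 followed, and then NPR3, the clearance receptor of natriuretic peptides, at 1.18 ± 0.0776 with DMSO and 2.98 ± 0.267 CPM with NE (1.33). KCNH5, a potassium channel, (1.23) and NCKAP5 (1.23) came next, and PDE4D, DLL4, FGFR2 and CEBPD closed the 15. The 15 largest falls were DUSP6, SPRY4, KRTAP2-3, FOSL1, EGR1, CCND1, JUN, POU2F2, VCAM1, PTX3, SEMA7A, DUSP5, FGF5, F3 and GPR39. POU2F2, the octamer-binding factor OCT2, stood at 37.4, 29.8 and 30.4 CPM in DMSO 1 to 3 and 17.9, 15.4 and 14.9 CPM in NE 1 to 3 (log2 fold change -1.02 ± 0.11, adjusted p = 0.00197), with DMSO 1 the highest library. SEMA7A, a membrane-anchored semaphorin, fell from 36.4 ± 2.93 to 19.1 ± 0.357 CPM (-0.92). KRTAP2-3 (-1.08) has near-identical neighbours and is uncertain, and GPR39, a zinc-sensing receptor, fell by 0.86. The calls of KCNH5, FGFR2, KRTAP2-3 and GPR39 were lost in fits without a library: all 4 without NE 2, 2 without NE 1, 3 without NE 3, 1 without DMSO 1, 2 without DMSO 2 and 2 without DMSO 3 (adjusted p up to 0.154). By smallest adjusted p, ENC1, an actin-binding protein, joined the falls at 65.6 ± 2.07 with DMSO and 36.3 ± 1.38 CPM with NE (log2 fold change -0.85 ± 0.049, adjusted p = 0.000137).

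The 5 called genes with the highest CPM in each direction, on a scale that does not correct for transcript length, each changed by less than 2-fold. IGFBP4, which binds insulin-like growth factors, rose from 601 ± 47.3 to 876 ± 27.5 CPM (log2 fold change 0.54 ± 0.063, adjusted p = 0.00348). TM4SF1, a tetraspanin-like membrane protein, rose from 213 ± 21.1 to 373 ± 26.4 CPM (log2 fold change 0.81 ± 0.080, adjusted p = 0.00149), with DMSO 1 above the other DMSO libraries. GALNT2, a relative of GALNT15, rose from 239 ± 1.302 to 317 ± 5.92 CPM (log2 fold change 0.41 ± 0.038, adjusted p = 0.0011). These 3 were stable. MT-ND2 and AKAP12 rose, and RTN4 (-0.20), the caveolar proteins CAV1 (-0.33) and CAVIN1 (-0.21), CNN3 and CCDC80 (-0.25) fell. Calls of MT-ND2, AKAP12, RTN4, CAV1, CAVIN1, CNN3 and CCDC80 depended on single libraries: all 7 without NE 2 or NE 3, 5 without NE 1, 5 without DMSO 2 and 5 without DMSO 3 lost them (adjusted p up to 0.235).

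The block on replicate number added 1249 genes. The log2 fold changes given next are those of the blocked fit. The 5 largest rises above 1 log2 CPM that it added were HAP1 (0.96, adjusted p 0.000761 with the block and 0.0518 without), ABHD16A (0.78), H3C14 (0.73), CD24 (0.73) and TBC1D3C (0.70). The 5 largest falls were EGR3 (-1.05), SRSF12 (-0.64), METTL7B (-0.64), CCDC85B (-0.62) and KCNN4 (-0.61). H3C14 and TBC1D3C belong to families of near-identical copies and are uncertain. CCDC85B stood at 85.8, 57.5 and 60.7 CPM in DMSO 1 to 3 and 51.2, 41.1 and 39.8 CPM in NE 1 to 3, with replicate 1 highest in each group. Its adjusted p was 3.44e-07 with the block and 0.123 without. Choosing genes called only with the block favours such a pattern, so it adds no weight to a pairing by number.

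In 9 of the 47 gene lists no member was called, 118 tested genes in all. Of these 24 had an unadjusted p below 0.05, DESeq2 called 3 and the replicate block 20. Over all 15630 genes tested, 2168 had an unadjusted p below 0.05, DESeq2 called 583 and the block called 1688. Beside the receptor, clearance, S and M phase, endothelial and immune lists these were the interleukin-6 family (median -0.002 over 14 tested), heat shock (-0.061 over 15), cholesterol synthesis (-0.039 over 24) and phagocytosis (-0.021 over 21).

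The NE change was then set against the DEX change of the other table, to ask which NE genes behaved differently under the glucocorticoid. DEX called 1530 of 15133 genes (10.1%), and the difference between the NE effect and the DEX effect, fitted over all 12 libraries, was called for 957 of 15952 genes (6.00%). Each agent was compared only with the vehicle columns deposited beside it. Since the agents sit in separate tables, a difference between agents and a difference between the 2 sets of cultures cannot be told apart. The 2 vehicle sets differed in level, each on the CPM scale of its own table. In 4 genes chosen after their values were seen, NR4A3 was at 1.86 ± 0.192 against 13.1 ± 1.47, CCND1 at 406 ± 27.3 against 137 ± 4.07, FGFR2 at 1.38 ± 0.377 against 26.7 ± 0.926 and MT-ND2 at 860.4 ± 13.7 against 1898 ± 112 CPM (NE table against DEX table, mean ± SD, n = 3 each). The differences between the agents rest on these unequal baselines. Of the 424 NE calls tested in every fit, 137 were also called with DEX in the same direction and 61 in the opposite direction, and 226 were not called with DEX. The difference was called for 221 of the 424, among them 40 of the 137.

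SMOC1 had changes of opposite sign: NE raised it by 1.38 and the DEX change was -0.99 on the log2 scale, a difference of 2.38 (SE 0.083, adjusted p = 8.72e-10). IL1RN rose with NE and had a DEX change of -0.04 (difference 2.29, adjusted p = 5.45e-06). NR4A3 (1.61 against -0.50, adjusted p = 3.12e-06), EPHA5 (1.35 against -0.71, 5.9e-05), BMP6 (2.62 against -0.51, 2.28e-05) and CREB5 (0.95 against -0.26, 5.41e-05) also rose more with NE. Among phosphodiesterases the difference was called for PDE3A (0.71 against -0.27, 1.06e-05) and PDE7B (0.73 against 0.18, 0.000478). For PDE4D it was not: the changes were 1.20 and 1.01, with a difference of 0.19 and a 95% interval from -0.10 to 0.47.

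Several ERK-linked genes that fell with NE were not lower with DEX. DUSP5 had a DEX change of 0.97 (difference -1.87, SE 0.096, adjusted p = 6.41e-08), DUSP6 of 0.21 (difference -1.44, adjusted p = 3.28e-05), SPRY4 of 0.16 (-1.35, 1.19e-05) and JUN of -0.031 (-0.99, 0.00153). CCND1, EGR1 and FOSL1 fell with both, and further with NE, with differences of -0.71, -0.69 and -0.41 and adjusted p-values of 0.000255, 0.000451 and 0.00841. PHLDA1 (-0.33 with NE and -0.34 with DEX), PLAU (-0.54 and -0.66) and SPRED3 (-0.60 and -0.60) also fell with both. For these the difference was not called (adjusted p = 0.971, 0.81 and 0.99). Several genes of matrix and coagulation moved in opposite directions, lower with NE and higher with DEX: THBS1 (-0.62 and 0.64, adjusted p of the difference 2.87e-07), F3 (-0.86 and 0.57, 3.68e-07), CCN1 (-0.63 and 0.35, 4.87e-07), PTX3 (-0.94 and 1.49, 4.51e-06) and WNT5B (-0.70 and 0.47, 1.23e-06).

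Genes that rose with both included CRISPLD2 (DEX change 0.94) and GALNT15 (1.14), for which the NE rise was larger by 0.83 and 0.82 on the log2 scale (adjusted p = 2.01e-06 and 0.00088). Their baselines differed as well. CRISPLD2 went from 19.03 ± 0.442 to 64.9 ± 1.26 CPM with NE and from 49.7 ± 1.99 to 95.4 ± 3.05 CPM with DEX. GALNT15 went from 2.89 ± 0.268 to 11.2 ± 0.690 CPM and from 4.1 ± 0.245 to 9.07 ± 0.208 CPM. What part of the difference goes with the baselines was not tested. PER1 (2.28), RGS2 (1.81), KLF9 (1.64), CEBPD (1.55) and TSC22D3 (3.73) rose more with DEX, with adjusted p-values of the difference of 1.62e-06, 0.000141, 1e-05, 0.02 and 1.25e-10. CEBPD lost this call without vehicle 2 of the DEX table (adjusted p = 0.0504). For DUSP1 the difference was -0.20 (95% interval -0.46 to 0.07, adjusted p = 0.45), for NPR3 -0.12 (-0.59 to 0.34, 0.867), for NFE2L2 -0.09 (-0.21 to 0.032, 0.449) and for POU2F2, which fell with both, -0.13 (-0.46 to 0.20, 0.759).

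**Figure D5:**
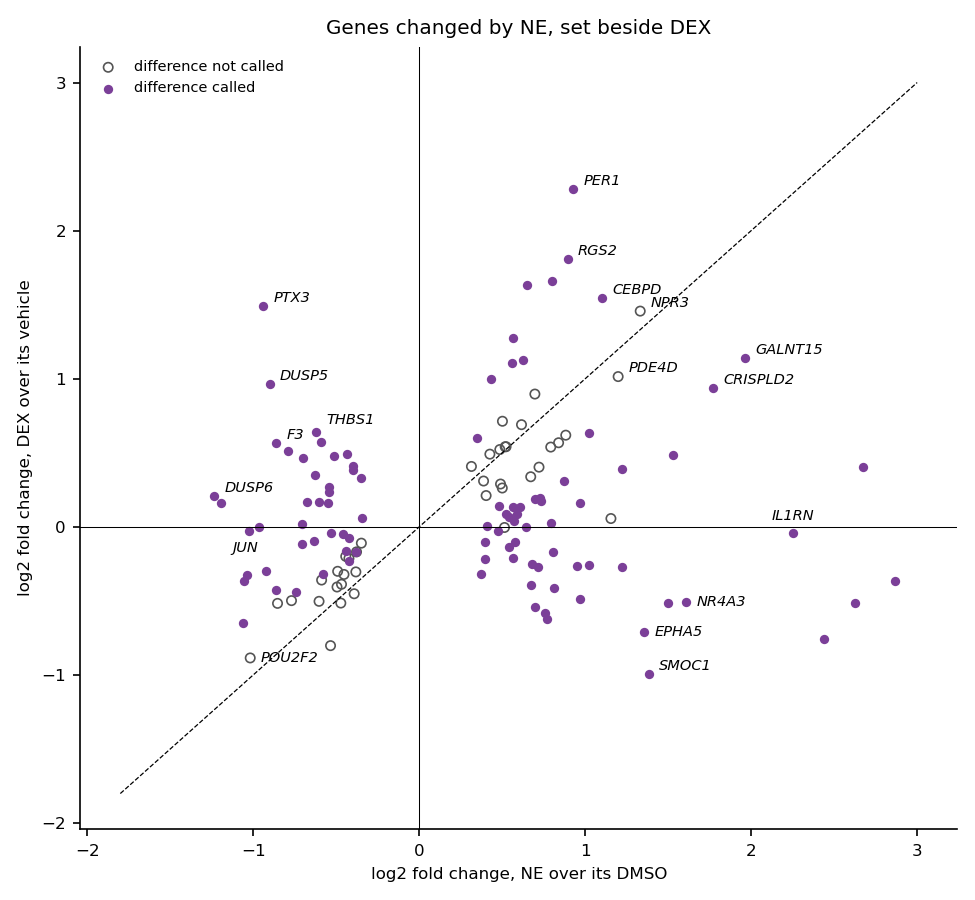
Change with NE (x axis) and change with DEX (y axis), each as log2 fold change over the vehicle libraries beside it, for 135 stable NE calls tested in every fit. Filled points are the 97 genes for which the difference was called, open points the rest, and the dashed line marks equal change. SMOC1 and NR4A3 lie at the lower right and PTX3 and DUSP5 at the upper left, while PDE4D and NPR3 lie near the line.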

How the data were processed

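RNA-seq libraries of a human trabecular meshwork cell line were deposited as 2 tables of expected counts per gene, 12 columns, all used. Per the file headers these are the authors' estimated (expected) counts; the aligner, genome build and strand setting are not given in the sources used. Counts were rounded and tested with edgeR 4.0.16 (R 4.3.3): filterByExpr, TMM, robust quasi-likelihood test of NE against DMSO without a block, Benjamini-Hochberg adjustment over all genes tested. The NE and DEX effects were compared in 1 fit of 12 libraries; 95% intervals use 8 residual degrees of freedom. Each SE is the log2 fold change over the root of F. Gene symbols come from a separate list of gene names, and gene positions and lengths from GENCODE 29. Alternatives were the replicate block, RLE factors, DESeq2 1.42.0, filters, all 12 libraries and leaving out each library. Named genes were the 5 given ones, the 15 largest rises and falls, the 5 smallest adjusted p and 5 highest levels per direction, called list members, and 5 block-only genes per direction. Members and lists were chosen with earlier results of these data known. Procedures were tested on simulated data. Some genes are not reported here.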

Additional observations from a re-analysis of the deposited data

How the results depend on the processing

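The count of 441 genes was 1688 with the replicate block, 702 with all 12 libraries in 1 fit, 447 with RLE size factors, 583 with DESeq2, 567 with no filter and 420 with a stricter filter. Leaving out 1 library gave 152 (without NE 2) to 671 (without DMSO 1). The 69 genes changed more than 2-fold became 33 to 66 with 1 library left out and 47 to 101 otherwise. The 957 genes that differed between NE and DEX became 726 to 1253 with 1 library left out and 1000 with the block. Same-numbered NE and DMSO libraries deviated together with r = 0.175, 0.039 and 0.103 for numbers 1, 2 and 3, against -0.133 to 0.041 for other pairs. The values for numbers 1 and 3 lay above those of every other pair. The fit without a block was kept as the main one because no method of the study names a block. Whether the numbers pair the samples was not tested, and the blocked counts are given as an alternative. No named gene that was called with NE changed direction in any alternative run of NE against DMSO. The cause of these shifts was not tested. With 3 libraries a group, genes near the threshold gain or lose their call with 1 library, and genes under 1 CPM rest on few counts.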

Other observations

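Several genes outside the lists were picked after their values were seen, so they carry no weight as a choice. MYOCD, myocardin, the coactivator of smooth muscle genes, stood at 0.191, 0.276 and 0.226 CPM in DMSO 1 to 3 and 1.45, 1.62 and 2.07 CPM in NE 1 to 3 (log2 fold change 2.87 ± 0.25, adjusted p = 0.00079). CGA, the alpha subunit of glycoprotein hormones and a classic cAMP-responsive gene, stood at 0.382, 0.138 and 0.170 CPM in DMSO 1 to 3 and 1.39, 1.22 and 1.76 CPM in NE 1 to 3 (log2 fold change 2.67 ± 0.35, adjusted p = 0.006). CEBPA, a relative of CEBPD, stood at 0.446, 0.358 and 0.339 CPM in DMSO 1 to 3 and 1.55, 1.27 and 1.296 CPM in NE 1 to 3 (log2 fold change 1.84 ± 0.21, adjusted p = 0.00306), and FGB, the fibrinogen beta chain, at 0.0956, 0.0551 and 0.0565 CPM in DMSO 1 to 3 and 0.644, 0.434 and 0.662 CPM in NE 1 to 3 (log2 fold change 3.02 ± 0.38, adjusted p = 0.00497). MYOCD, CGA and FGB had 2 to 12 counts in the DMSO libraries and passed the expression filter through the NE group, so these 3 had to differ and their tests lend no support.

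EDNRA, the endothelin A receptor, rose from 5.14 ± 0.129 to 9.48 ± 0.528 CPM (log2 fold change 0.88 ± 0.077, adjusted p = 0.00079). The cell death genes BCL2L11, which encodes the pro-apoptotic BIM, and BCL2L1, which encodes the anti-apoptotic BCL-XL, moved in opposite directions, with log2 fold changes of 0.70 and -0.40 (adjusted p = 0.00209 and 0.00437). HAS2, a hyaluronan synthase, fell from 10.9 ± 1.13 to 6.32 ± 0.526 CPM (log2 fold change -0.79 ± 0.100, adjusted p = 0.00509), while its relative HAS3 rose (0.78, adjusted p = 0.0243). PCSK1, a prohormone convertase with the full CRE in its promoter window, rose as well (1.23, adjusted p = 0.021). Of PCSK1 and HAS3, both without NE 2, NE 3, DMSO 2 or DMSO 3 and 1 without NE 1 lost the call, with adjusted p-values of up to 0.117.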
